A study of Mus musculus with 8 samples.

Results

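The genes that encode the proteins of the cytosolic ribosome were followed in mouse preimplantation embryos cultured with or without trimetazidine (TMZ), a drug that blocks the last step of β-oxidation of long-chain fatty acids. Members were the protein-coding genes whose symbol starts with Rpl or Rps and a digit, together with Rpsa, Rplp0, Rplp1, Rplp2 and Fau, leaving out Rps6k kinase genes and pseudogenes. The annotation holds 91 such genes. Of these, 74 were found among 31899 entries of the 8-cell table and 74 among 29202 entries of the morula table, and 72 were found at both. The rule takes in a few genes that are not standard ribosomal proteins by their symbol alone, such as Rps19bp1, which encodes a binding partner of ribosomal protein S19.

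Embryos came from superovulated ICR mice of 7 weeks and were cultured in KSOM. TMZ at 100 μM was added from the 2-cell stage according to the labels, and control embryos received no inhibitor. RNA was amplified as full-length mRNA at 70 h (8-cell) and 78 h (morula) after injection of human chorionic gonadotropin (hCG), with 2 libraries in each of the 4 groups. All groups shared strain, medium and amplification, and the number of embryos behind a library is not given in the sources used here. The deposited tables carry no gene names, and both TMZ columns of the 8-cell table have the same header, so those libraries are called A and B.

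A ribosome has a large subunit, which holds the proteins named Rpl and forms peptide bonds. Its small subunit holds the proteins named Rps and reads the mRNA. Most of these mRNAs begin with a cytosine and a run of pyrimidines, the 5′ terminal oligopyrimidine (TOP) tract, through which their translation responds to nutrient and growth signals. In the mouse embryo, ribosome production starts after activation of the embryonic genome and increases during the cleavage stages.

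These start-site features were looked up in RefSeq (build GRCm38.p6), where 68 of the 91 members have an entry among 17492 protein-coding genes. The sequences below run from 10 bases before to 20 bases after an annotated start and belong to members described in this text. They were chosen to show members with and without a long tract, and capitals mark the longest run of C and T that reaches the window from 5 bases before to 20 bases after the start.
Rpl27a, chr7:109519185-109519214, plus strand: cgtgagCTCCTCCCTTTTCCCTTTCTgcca
Fau, chr19:6057937-6057966, plus strand: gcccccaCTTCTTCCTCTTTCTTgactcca
Rps12, chr10:23787190-23787219, minus strand: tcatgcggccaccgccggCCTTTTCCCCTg
Rpl39l, chr16:10170218-10170247, plus strand: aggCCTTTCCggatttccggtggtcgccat
Rpsa, chr9:120127756-120127785, plus strand: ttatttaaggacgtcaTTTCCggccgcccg
Rpl41, chr10:128549149-128549178, minus strand: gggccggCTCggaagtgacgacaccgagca
The run was 20 letters long in Rpl27a, 16 in Fau and 11 in Rps12, against 5 in Rpsa and 3 in Rpl41. A run of at least 6 letters in that window was present in 35 of 68 members (51.5%) and in 24.4% of all protein-coding genes. A C at the first base that opened a run of at least 5 letters was present in 15 of 68 members (22.1%) and in 2.67% of all. The letters CCGGAA, searched on both strands from 250 bases before to 50 bases after the start, were in 36 of 68 members (52.9%) and in 20.9% of all. These matches describe the letters in the window only, and annotated starts may lie away from the starts used in embryos.

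Entries were assigned to genes from their recovered lengths and their order, so each name is an inference with a posterior probability of at least 0.95. Of the 74 members, 26 in the 8-cell table and 28 in the morula table matched the annotated exonic length exactly, and the others matched a shorter length. When the members were taken out of the reference, 0 of 74 of their entries were given to another gene at either stage. Among those not assigned at either stage were Rpl17, Rpl19, Rpl28, Rpl29, Rpl31, Rpl36, Rpl36al, Rpl37, Rpl37a, Rpl39, Rpl5, Rplp1 and Rps20. Rplp2 and Rps21 were assigned only at the morula stage, and Rpl34 and Rps27a only at the 8-cell stage. A mean of at least 1 FPKM (fragments scaled to gene length and library total, a level per length) was reached by 72 of 74 members in 8-cell embryos and 71 of 74 in morulae, against 4 of 309 and 3 of 179 olfactory receptor genes.

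The libraries held 31672356 to 64814423 fragments. The embryo markers were present, with 15 of 17 at a mean of at least 1 FPKM at each stage and sums of 6151 to 7836 FPKM per 8-cell library and 8009 to 9755 per morula library. In morulae 7 of the 15 were lower past the threshold under TMZ (10.7% of all entries were) and 1 was higher (7.16% of all entries). Cumulus cell markers, of which 3 and 5 of 10 were assigned, had 0 genes at 1 FPKM and sums of at most 0.207 FPKM. Markers of oocytes and polar bodies summed to 26.97 to 40.29 FPKM in 8-cell embryos and 12.64 to 20.32 in morulae, those of the 2-cell stage to 1.13 to 12.63 and 0.111 to 0.587, and those of blood and fibroblasts to 2.728 to 11.69 and 4.701 to 8.299. The 2-cell sum in 8-cell embryos was 12.63 and 1.13 in controls 1 and 2, and 7.455 and 5.49 in TMZ libraries A and B. Of the 2 such markers at 1 FPKM there, 1 was higher past the threshold under TMZ (1.35% of all entries were). Within the 8-cell table, TMZ library A stood apart: it held the lowest of the 4 values for 55 of the 72 members tested, while library B held the highest for 31. Library A was low over all entries too. Its median deviation from the 4-library mean was -0.275 log2 units over members and -0.206 over all entries tested. In the morula table control 2 was the highest library for 60 of 71 members and TMZ 2 the lowest for 49. Median deviations were 0.226 over members and 0.0691 over all entries in control 2, and -0.185 and -0.0576 in TMZ 2.

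The levels of ribosomal protein transcripts were high and varied widely between members. Their median level was 409 FPKM in 8-cell embryos and 574 FPKM in morulae, and 64 of 74 members exceeded 100 FPKM at each stage. Means over a stage spanned 0.254 to 5988 FPKM in 8-cell embryos and 0.409 to 6050 FPKM in morulae. Of the 31-base stretches in members' exons, a median of 23% occur elsewhere in GRCm39, so a level can miss fragments or gain them from copies. This share was 93.6% for Rps27rt, 90.4% for Rpl35rt and 81.6% for Rps3a1, whose values are uncertain for that reason.

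The highest level belonged to Rpl41, which encodes the smallest protein of the large subunit. Rpl41 stood at 4518 and 6125 FPKM in 8-cell controls, 5638 and 7670 in 8-cell TMZ libraries A and B, 5064 and 5643 in morula controls, and 6142 and 7349 in morula TMZ libraries. Its TMZ values lay above the controls at the morula stage and overlapped them at the 8-cell stage. Rps29, a zinc-binding protein of the small subunit, averaged 2814 FPKM over the 8 libraries, Rpl38 2662 and Rplp0 2347. Rps29, Rpl38 and Rplp0 have overlapping ranges over the libraries, and each library's value of Rpl41 was above all of theirs.

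At the low end, Rps23rg1 and Rpl27rt, which are retrotransposed copies, averaged 0.526 and 0.386 FPKM over the libraries and were not tested. Rpl3l, the muscle form of Rpl3, stood at 1.85 and 2.27 FPKM in 8-cell controls, 1.32 and 3.09 in TMZ libraries A and B, 0.516 and 1.34 in morula controls, and 1.11 and 0.308 in morula TMZ libraries. Rps10, a small-subunit protein, was at 6.21 and 4.89 FPKM in 8-cell controls, 4.74 and 4.62 in TMZ, 3.38 and 5.96 in morula controls, and 3.59 and 4.15 in TMZ. Rpl24, a large-subunit protein, was at 27.1 and 18.9 FPKM in 8-cell controls, 14.2 and 14.9 in TMZ, 10.02 and 19.4 in morula controls, and 13.7 and 16.7 in TMZ. Exons of other genes cover 30.7% of the exonic bases of Rps10 and 47.0% of those of Rpl24, and 54.3% of the 31-base stretches of Rpl24 occur elsewhere in the genome. Their part in the low levels was not tested.

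To ask whether blocking the oxidation of fatty acids changed these transcripts, TMZ was compared with control within each stage by limma-trend on log2(FPKM + 1), on which scale every fold change below is given. A gene counted as changed at an unadjusted P under 0.05 with a log2 fold change beyond 0.5 in either direction.

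At the 8-cell stage, 0 of 72 members were higher (1.35% of all 10021 entries tested were) and 0 were lower (4.96% of all entries). By limma-trend 0 members had an unadjusted P under 0.05, against 632 of all entries and 0 entries with an adjusted P under 0.05, and limma-voom on recovered fragment numbers also called 0 members. The median log2 fold change of the members was -0.195, beside -0.188 over all entries, but it reversed to 0.0951 with median-ratio scaling of the libraries, which moved the median of all entries by 0.234. Relative to all entries, the members' median differed by -0.00747 as deposited and by 0.0490 with that scaling. Of the members 57 lay below 0 (79.2%, against 69.1% of all entries) and 15 above, whereas 21 of 72 lay below 0 with median-ratio scaling. TMZ lay below control without overlap in 21 members (29.2%, against 29.6% of all entries) and above it in 4 (8.09% of all entries).

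The lowest log2 fold changes at the 8-cell stage, none of which passed the test, mostly came with a low value in library A. Rps4l, an autosomal relative of the small-subunit gene Rps4x, stood at 310 and 206 FPKM in controls, 108 in library A and 226 in library B (log2 fold change -0.69 ± 0.38 SE). Rpl8, a protein near the peptidyl transferase centre of the large subunit, stood at 599 and 476 FPKM in controls, 248 in library A and 466 in library B (-0.65 ± 0.33 SE). In Rps4l the groups overlapped, and in Rpl8 library B was just under the lower control. Rpl18 was at 281 and 272 FPKM in controls, 121 in library A and 298 in library B (-0.54 ± 0.39 SE), with B above both controls. For Rpl24, with the values given above, both TMZ libraries were below both controls and close to each other (-0.60 ± 0.34 SE). Without library A the median of the members was 0.0227, 33 of 72 lay below 0 and 2 were higher past the threshold, as were 474 of 10021 entries. Without library B the median was -0.365 and 22 were lower past it, against 15.4% of all entries.

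At the upper end of the 8-cell comparison were Rpl41 (0.32 ± 0.26 SE), Rps27rt (0.23 ± 0.48 SE), Rpl21 (0.22 ± 0.25 SE) and Rps24 (0.18 ± 0.26 SE). Rpl21, a large-subunit protein, was at 278 and 335 FPKM in controls and 376 and 336 in TMZ libraries A and B. Rps24, a small-subunit protein, was at 141 and 161 FPKM in controls and at 171 in both TMZ libraries. In both genes the TMZ libraries lay above both controls, by less than the error of the fit.

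**Figure D1:**
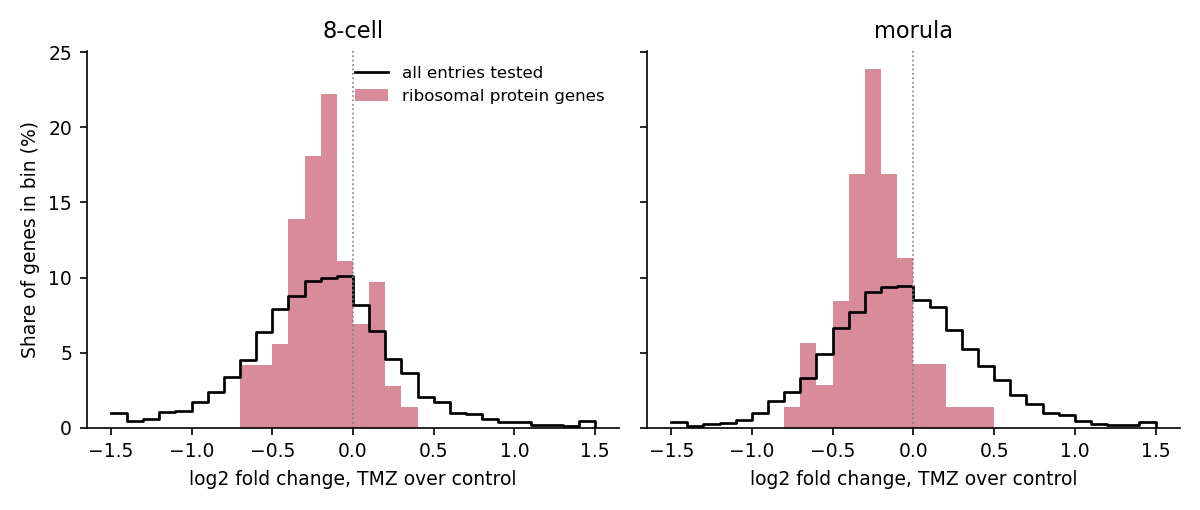
Share of genes (%) in bins of 0.1 of the log2 fold change of TMZ over control at each stage. Bars are ribosomal protein genes, the line is all entries tested, and the outermost bins also hold entries beyond the axis. The members form a narrow peak, at the centre of all entries in 8-cell embryos and below it in morulae.

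At the morula stage most members had lower values in TMZ embryos, also with median-ratio scaling. Of 71 members tested, 62 lay below 0 (87.3%, against 57.3% of all 9685 entries), and the median log2 fold change was -0.244 beside -0.0759 over all entries. The TMZ libraries lay below both controls in 45 members (63.4%, against 33.3% of all entries) and above both in 4 (22.3% of all entries). Most of these differences were small: 7 members were lower past the threshold (9.86%, against 10.7% of all entries) and 0 were higher (7.16% of all entries), with the same counts by limma-voom. By limma-trend, 15 members had an unadjusted P under 0.05 and 0 an adjusted P under 0.05, against 1900 and 3 of all entries. In whole-embryo libraries scaled to their total, less of this RNA per cell and a smaller share of cells rich in it cannot be separated. The paper also reports arrest and delayed development of embryos treated with TMZ. In control embryos most members stood higher in morulae than at the earlier stage, as given below. Whether TMZ and control morulae were equally advanced in development was not tested.

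The distance between the members' median and that of all entries was -0.168, and it stayed below 0 in each of the alternatives run at this stage, from -0.241 without control 1 to -0.0770 without control 2. With median-ratio scaling, which moved the median of all entries by 0.103, the members' median was -0.116 and 51 of 71 lay below 0. With it 3 were lower (7.09% of all entries were) and 1 higher past the threshold. Control 2 and TMZ 2 set much of the size: without control 2 the median was -0.137 with 3 members lower (6.02% of all entries), without control 1 it was -0.350 with 13 lower (10.9%), and without TMZ 2 it was -0.183 with 1 lower (4.5%).

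The members were also divided by subunit. At the morula stage the 38 large-subunit members had a median of -0.275 with 4 lower (10.5%). The 32 small-subunit members had a median of -0.227 with 3 lower (9.38%), where 10.7% of all entries were lower. At the 8-cell stage the medians were -0.258 over 39 and -0.145 over 32, beside -0.188 over all entries. In each subunit 0 members changed, where 4.96% of all entries were lower and 1.35% higher. The 8-cell median of all members reversed with median-ratio scaling, as given above. The difference between the subunits was not tested.

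Of the 7 members past the threshold at the morula stage, 4 belong to the large subunit. Rpl8 (GRCm39 chr15:76788271-76790514) stood at 805 and 936 FPKM in controls and 609 and 434 in TMZ. Both TMZ libraries were below both controls, and the log2 fold change was -0.75 ± 0.20 SE (limma adjusted p = 0.169). Rpl10a (chr17:28547144-28550008), a protein of the L1 stalk over which spent tRNAs leave the ribosome, stood at 275 and 335 FPKM in controls and 202 and 180 in TMZ. It had a log2 fold change of -0.67 ± 0.17 SE (limma adjusted p = 0.167), and was the member called in each of the 12 alternatives that could be run for it. A posterior of at least 0.99 could not be, since its name had posteriors of 0.986 (8-cell) and 0.982 (morula). Its recovered length was 2431 bases, against 2733 annotated. Rpl27a (chr7:109118254-109121583), whose long pyrimidine run is printed above, stood at 217 and 255.8 FPKM in controls and 172 and 138 in TMZ (-0.61 ± 0.18 SE, limma adjusted p = 0.181). Rpl32 (chr6:115782442-115785785) stood at 1610 and 1959 FPKM in controls and 1346 and 1162 in TMZ (-0.51 ± 0.16 SE, limma adjusted p = 0.193). In all 4 genes the groups were apart. The names of Rpl27a and Rpl32 had morula posteriors of 0.988 and 0.956, also under 0.99.

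The other 3 belong to the small subunit. Rpsa (chr9:119956755-119962787), which is also known as the laminin receptor, stood at 261 and 242 FPKM in controls and 190 and 129 in TMZ (-0.68 ± 0.21 SE, limma adjusted p = 0.189). Rps12 (chr10:23661081-23663173) stood at 197 and 263 FPKM in controls and 149 and 147 in TMZ (-0.62 ± 0.18 SE, limma adjusted p = 0.182). Rps4l (chr6:148256098-148257431) stood at 326 and 371 FPKM in controls and 265 and 221 in TMZ (-0.52 ± 0.16 SE, limma adjusted p = 0.193). These groups did not overlap either, but without TMZ 2 the calls of Rpsa, Rps12 and Rps4l, and those of Rpl8, Rpl27a and Rpl32, were lost. Of the 31-base stretches of these 7 genes, 6.83% in Rpl8 to 28.7% in Rpsa occur elsewhere in GRCm39.

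**Figure D2:**
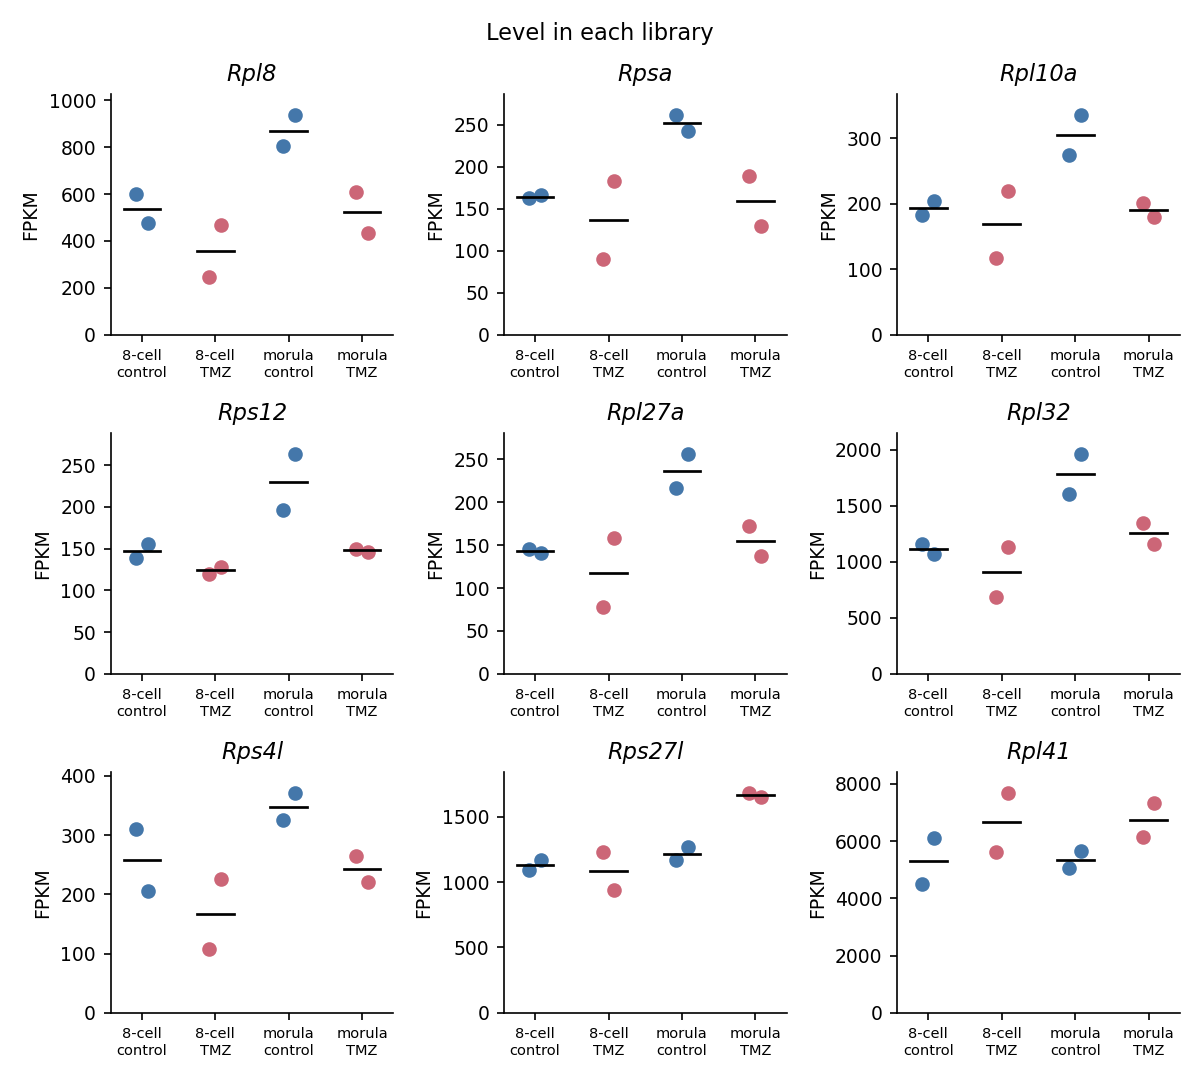
Level (FPKM, axis from 0) of the 7 members lower past the threshold in TMZ morulae and of Rps27l and Rpl41. Points are libraries and lines are group means (n = 2). In 8-cell TMZ embryos the first point is library A, which sits below the controls for the first 7 genes, and in morulae the groups are apart for all 9.

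A few members went against the others at the morula stage. Rps27l, a paralogue of Rps27 known as a target of p53, stood at 1167 and 1270 FPKM in controls and 1679 and 1649 in TMZ. Its TMZ libraries were above both controls with a log2 fold change of 0.45 ± 0.13 SE, under the limit of 0.5 (limma adjusted p = 0.180). At the 8-cell stage it had stood at 1092 and 1169 FPKM in controls and 1232 and 938 in TMZ, with the groups overlapping (-0.07 ± 0.25 SE). Rpl41 had a log2 fold change of 0.33 ± 0.14 SE and Rps19bp1 one of 0.25 ± 0.15 SE, from 139 and 159 FPKM in controls to 182 and 173 in TMZ. Rps4x, a small-subunit gene of the X chromosome, stood at 1064 and 999 FPKM in controls and 1163 and 1196 in TMZ (0.19 ± 0.13 SE), opposite to its paralogue Rps4l. These 4 were the only members whose TMZ libraries both lay above both controls in morulae.

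The P-stalk recruits translation factors to the ribosome. Its base protein Rplp0 stood at 2602 and 3100 FPKM in morula controls and 2254 and 1912 in TMZ, without overlap (-0.45 ± 0.16 SE, limma adjusted p = 0.210). In 8-cell embryos Rplp0 was at 1999 and 2230 FPKM in controls, 1781 in library A and 2898 in library B (0.11 ± 0.28 SE). Rplp2 was at 652 and 809 FPKM in morula controls and 585 and 569 in TMZ (-0.33 ± 0.16 SE). Fau, which encodes a ubiquitin-like protein fused to a small-subunit protein, was at 1236 and 1297 FPKM in 8-cell controls and 1167 and 1177 in TMZ, and at 1365 and 1555 in morula controls and 1387 and 1368 in TMZ. Its TMZ libraries were below the controls at the 8-cell stage and overlapped them in morulae (-0.11 ± 0.23 SE and -0.08 ± 0.14 SE). Rps27a, a fusion of ubiquitin and a small-subunit protein, was at 554 and 622 FPKM in 8-cell controls and 631 and 558 in TMZ, with overlap (0.02 ± 0.24 SE).

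Among the paralogues of standard ribosomal proteins, Rpl39l, a form of Rpl39 known from testis and stem cells, was abundant. It stood at 595 and 673 FPKM in 8-cell controls, 537 and 641 in TMZ, 616 and 640 in morula controls, and 621 and 702 in TMZ. Its groups overlapped at both stages and between them. Rpl7l1, a pre-ribosome factor related to Rpl7, stood at 188 and 176 FPKM in 8-cell controls, 148 and 169 in TMZ, 203 and 238 in morula controls, and 189 and 173 in TMZ. Rpl22l1, a paralogue of Rpl22, stood at 20.2 and 24.7 FPKM in 8-cell controls, 18.8 and 18.2 in TMZ, 32.0 and 36.6 in morula controls, and 22.9 and 30.8 in TMZ. In Rpl7l1 and Rpl22l1 the TMZ libraries were below both controls at each stage, without passing the test. Rpl10l, a retrogene related to Rpl10, ranged from 45.6 to 111 FPKM in 8-cell libraries of either group and from 66.2 to 95 in morulae. Rps27rt, a copy of Rps27, ranged from 8.14 to 23.3 FPKM in 8-cell libraries and from 28.8 to 36.3 in morulae.

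Over the 69 members tested at both stages, 50 were below 0 at both (44.5% of all 7234 genes tested at both stages were) and 3 above 0 at both (16.3% of all), with the 8-cell sign depending on the scaling as given above. Both TMZ libraries were below both controls at each stage in 14 members (11.7% of all genes) and above them in 0 (3.18% of all genes). The stages share no library. The log2 fold changes of the members at the 2 stages had a Spearman rho of 0.43 across these 69 genes, which are not independent replicates and share library depth within each stage. The difference of the TMZ effect between stages, tested in one limma fit over the 8 libraries, had 0 of 70 members at an unadjusted P under 0.05 (633 of 7880 genes in all) and a lowest adjusted p of 0.718 among members. The member of lowest P was Rps27l, whose TMZ effect was higher in morulae by 0.52 ± 0.26 SE. A difference between the stages was not detectable for any member with 2 libraries a group.

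**Figure D3:**
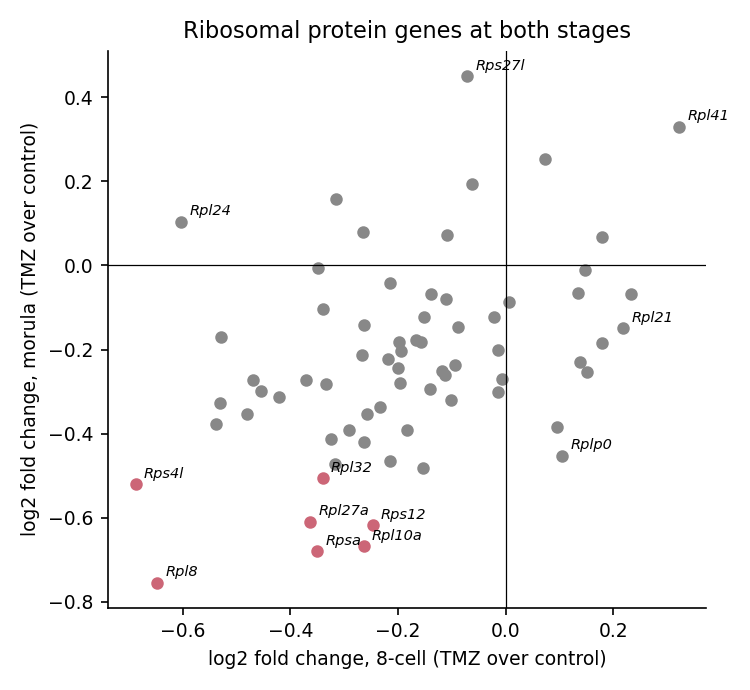
Log2 fold change of TMZ over control in 8-cell embryos (x) and in morulae (y), with a point for each of 69 members. Red points are the 7 members lower past the threshold in morulae, and 50 points lie below 0 on both axes, of which the 8-cell sign reverses for the median with median-ratio scaling.

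Between the stages, ribosomal protein transcripts were higher in morulae. Stage and deposited table are the same split, so these values are given side by side without a test and table and stage cannot be told apart. The members held 10.3% and 10.6% of the summed FPKM in 8-cell controls, 9.31% and 10.9% in TMZ libraries A and B, 12.9% and 14.4% in morula controls, and 12.3% and 11.7% in morula TMZ libraries. Each morula library was above each 8-cell library. In group means, the share was 10.4% ± 0.214 (SD, n = 2) in 8-cell controls against 10.1% ± 1.12 after TMZ at that stage, and 13.6% ± 1.06 in morula controls against 12% ± 0.451 in treated morulae. In morulae both controls were above both TMZ libraries, and at the 8-cell stage the groups overlapped. These shares take the members found at each stage, which differ by a few genes. Over the 72 members found at both, the share was 9.11% to 10.7% in 8-cell libraries and 11.4% to 14% in morula libraries.

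**Figure D4:**
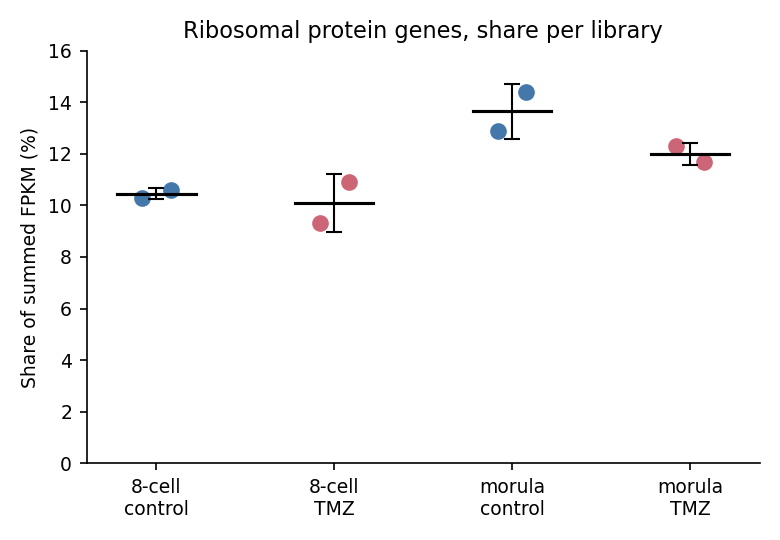
Share (%) of the summed FPKM of a library held by the cytosolic ribosomal protein genes found at its stage. Points are libraries, lines are group means and bars are the SD (n = 2). The 4 morula libraries lie between 11.7% and 14.4% and the 4 8-cell libraries between 9.31% and 10.9%.

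In control embryos the median ratio of morula to 8-cell level was 1.33 over 70 members and 0.930 over 7880 genes. Both morula controls were above both 8-cell controls in 53 members (75.7%, against 21.8% of all genes) and below them in 2 (33.0% of all genes). In TMZ embryos the median ratio was 1.21 over the members and 1.04 over all genes, with 39 members higher (55.7%, against 28.6%) and 2 lower (20.4% of all genes). With each library scaled to the same sum, 56 members were higher in control embryos (80%, against 21.3% of all genes) and 42 in TMZ embryos (60%, against 27.2%). Without 8-cell TMZ library B the median log2 ratio in TMZ embryos was 0.551 in place of 0.281 and 59 members were higher, where 53.0% of all genes were.

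The largest rise in controls was that of Rps27rt, from 11.8 ± 2.52 to 33.9 ± 3.32 FPKM (SD, n = 2), a ratio of 2.87, with the share of stretches found elsewhere given above. Rpl6, a large-subunit protein, rose from 238 and 270 FPKM to 459 and 533 (ratio 1.95), and in TMZ embryos it went from 168 and 254 to 398 and 356 (1.79). Rpl14, also of the large subunit, went from 645 and 556 FPKM to 1016 and 1144 in controls (1.80) and from 418 and 595 to 908 and 714 in TMZ embryos (1.60). In both genes the stages were apart in either group. The 3 lowest ratios in controls were those of Rpl3l (0.452, without overlap), Rpl24 (0.640, with overlap) and Rps10 (0.842, with overlap), which are also the members of lowest level among those compared. Rpl41 kept its level, with ratios of 1.01 and 1.01 in control and TMZ embryos and overlap in both. Rpl39l had ratios of 0.99 and 1.12, with overlap in both.

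**Figure D5:**
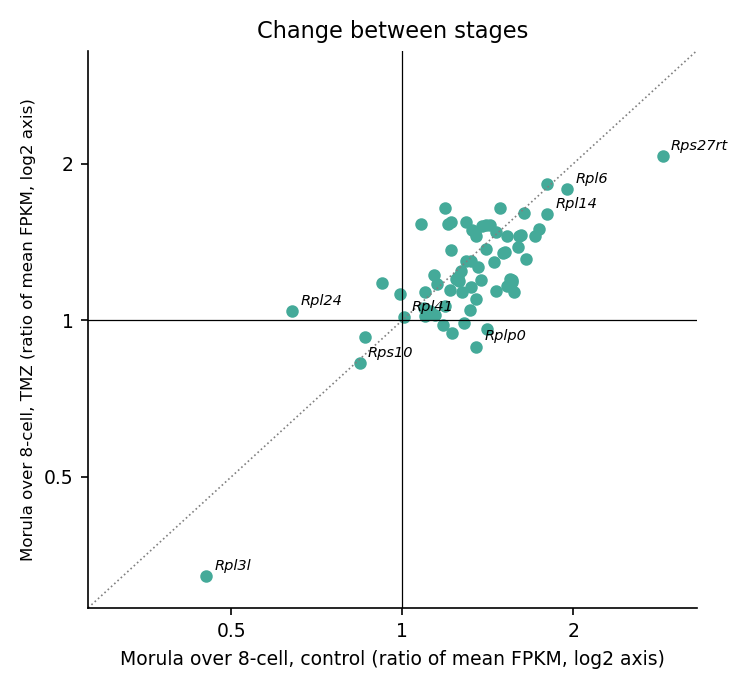
Ratio of mean FPKM in morulae over 8-cell embryos for control (x) and TMZ (y) embryos, both on log2 axes, with a point for each of 70 members and a dotted line where both ratios are equal. Most points lie above 1 on both axes, with Rps27rt highest and Rpl3l lowest.

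Other genes of translation, ribosome biogenesis and growth control were taken from lists chosen with earlier results of these data known. The shares of these lists past the threshold are descriptions, not independent support. Of 21 further TOP mRNAs and translation factors, 15 were tested in morulae and 6 were lower past the threshold (40%, against 10.7% of all entries), with a median of -0.382 beside -0.0759 over all entries. Eef2, the elongation factor that moves the ribosome along the mRNA, stood at 142 and 162 FPKM in controls and 93.9 and 79.5 in TMZ (-0.80 ± 0.17 SE, limma adjusted p = 0.161). Eif4b, a cofactor of the initiation helicase, stood at 23.5 and 25.9 FPKM in controls and 15.9 and 11.9 in TMZ (-0.80 ± 0.21 SE, limma adjusted p = 0.168). Eif3f, a subunit of initiation factor eIF3, changed by -0.63 ± 0.20 SE and Pabpc1, the poly(A)-binding protein, by -0.62 ± 0.17 SE. The elongation factors Eef1a1 and Eef1g were lower as well, the latter named after its value was seen. Eef1a1 stood at 831 and 953 FPKM in controls and 666 and 502 in TMZ (-0.62 ± 0.18 SE). In each of the 6 lower genes TMZ 2 held the lowest value. Npm1, a nucleolar chaperone, stood at 2289 and 1755 FPKM in controls and 2285 and 2117 in TMZ, with overlap (0.13 ± 0.165 SE).

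In 8-cell embryos 17 of this list were tested, of which 1 was higher (Hnrnpa1, 231 and 229 FPKM in controls, 527 and 321 in TMZ) and 0 lower (1.35% and 4.96% of all entries), with a median of -0.270 beside -0.188. There Eef1a1 stood at 465 and 460 FPKM in controls and 312 and 471 in TMZ (-0.27 ± 0.28 SE), Eef2 at 134 and 91.9 and at 43.1 and 111 (-0.68 ± 0.44 SE), and Npm1 at 1549 and 1470 and at 1765 and 1888 (0.27 ± 0.23 SE). Tpt1 was not assigned. Rack1, a scaffold protein on the small subunit, stood at 308 and 306 FPKM in 8-cell controls and 250 and 273 in TMZ (-0.23 ± 0.25 SE), and at 346 and 384 in morula controls and 311 and 290 in TMZ (-0.28 ± 0.14 SE).

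Ribosome biogenesis factors make and process ribosomal RNA and assemble the subunits. Of 104 listed genes 95 were tested in morulae, with a median of -0.293. Past the threshold 25 were lower (26.3%, against 10.7% of all entries) and 3 higher (7.16% of all entries were). The largest falls were those of Fbl, the methyltransferase of box C/D particles (14.78 and 15.95 FPKM in controls, 9.39 and 5.93 in TMZ, -0.95 ± 0.25 SE), Mybbp1a (-0.90 ± 0.19 SE), Noc2l (-0.89 ± 0.21 SE) and Ddx51 (-0.89 ± 0.24 SE). Gnl3l (0.90 ± 0.23 SE), Brix1 (0.57 ± 0.16 SE) and Rpf2 (0.56 ± 0.15 SE) were higher. At the 8-cell stage 93 were tested, with a median of -0.189. There 3 were lower (Polr1b, Bysl and Rrp1, 3.23% against 4.96% of all entries) and 0 higher (1.35% of all entries were). Bysl was lower past the threshold at both stages. Of 16 genes of growth control, Myc was not assigned and Mtor was under the minimum level. In morulae 0 of 11 tested were lower and 0 higher (10.7% and 7.16% of all entries were). The 1 gene with an unadjusted P under 0.05 by limma was Tbp, named after its value was seen, which was higher (0.47 ± 0.19 SE). At the 8-cell stage 1 of 12 was lower and 0 higher (4.96% and 1.35% of all entries were). This was Eif4ebp1, a repressor of cap-dependent initiation (72.9 and 86.0 FPKM in controls, 57.8 and 40.6 in TMZ, -0.70 ± 0.31 SE).

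Processed pseudogenes of ribosomal proteins, copies of the mRNAs inserted in the genome, were tested in the same fits and are summarised apart from the genes. At the 8-cell stage 112 were tested, of which 21 were lower (18.8%, against 4.96% of all entries) and 4 higher (1.35% of all entries). Their median was -0.451, beside -0.195 for the genes and -0.188 over all entries. Pseudogene values with median-ratio scaling, which moved the 8-cell median of all entries by 0.234, are not given here. At the morula stage 112 were tested, of which 9 were lower (8.04%, against 10.7% of all entries) and 4 higher (7.16% of all entries). Their median was -0.0357, beside -0.0759 over all entries. A median of 77.7% of the 31-base stretches of those tested at the 8-cell stage occur elsewhere in GRCm39, and their median level was 4.44 FPKM. The largest changes at the 8-cell stage were Rpl30-ps6 (1.55 and 0.177 FPKM in controls, 9.28 and 5.59 in TMZ), Rpl23a-ps4 (1.08 and 0.135 against 5.01 and 6.92) and Rps18-ps1 (9.97 and 13.0 against 1.42 and 4.71). Of their 31-base stretches 20.1%, 12.7% and 66.4% occur elsewhere. Their parent genes Rpl30, Rpl23a and Rps18 had log2 fold changes of -0.26, -0.01 and -0.33.

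At the morula stage Rps24-ps3 stood at 121 and 98.2 FPKM in controls and 18.1 and 16.3 in TMZ, a log2 fold change of -2.60 ± 0.18 SE (limma adjusted p = 0.0121), one of the 3 entries in the whole table with an adjusted P under 0.05. Its parent Rps24 stood at 207 and 260 FPKM in controls and 225 and 185 in TMZ, with overlap (-0.19 ± 0.18 SE). Of the 31-base stretches of Rps24-ps3, 74.5% occur elsewhere in the genome. Rps23-ps2, at 0, 5.52, 0 and 0 FPKM, and Rps12-ps3, at 3.67 and 4.52 against 1.23 and 1.12 FPKM, were the next largest, of which the latter passed the threshold (-1.22 ± 0.22 SE).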

How the data were processed

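RNA-seq of 8 libraries was analysed, 2 for each of 4 groups taken from the sample labels. The study calls its RNA-seq replicates biologically independent, but its sources differ on their number, and the 2 libraries a group of the labels were used. The authors trimmed reads with fastp 0.23.4, aligned them to GRCm39 with STAR 2.7.9a, counted with featureCounts 2.0.6 and deposited FPKM values, 1 table per stage, whose strand setting is not given in the sources used here. FPKM values were whole multiples of the value of 1 fragment, from which library totals and entry lengths were recovered. Lengths in table order were aligned by a pair hidden Markov model to GENCODE vM39 genes, keeping a posterior of at least 0.95 (25020 of 31899 and 21996 of 29202 entries). Members and lists were chosen with earlier results of these data known.

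Entries averaging 1 FPKM or more were tested within a stage by limma-trend (limma 3.58.1, R 4.3.3) on log2(FPKM + 1), with Benjamini-Hochberg adjustment over all entries tested. The threshold was an unadjusted P under 0.05 with an absolute log2 fold change over 0.5. Since the deposited unit is FPKM, a count model on recovered fragment numbers (limma-voom) was only an alternative. On simulated fragment numbers with a log2 change of 1, the 8-cell fit called 125 of 192 changed and 475 of 9580 unchanged entries, and the morula fit 177 of 190 and 183 of 9318. Simulated entries varied independently, with no shift shared by a library, so these rates do not describe members that move together. Libraries held 31672356 to 64814423 fragments.

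Named were members past the threshold, the 4 largest and 4 smallest fold changes a stage, the 5 highest and 5 lowest mean levels, the P-stalk genes, Rpsa, Fau, Rps27a, the paralogue list, and the 3 largest rises and falls between stages. From other lists up to 4 genes a direction and stage past the threshold were named, with Rack1, Eef1a1, Eef2, Tpt1 and Npm1 in any case, and the 3 largest pseudogene changes a stage. A few genes that these rules name are not reported here. Alternatives were other pseudocounts, filters, scalings, limma-voom, all 8 libraries in 1 fit, a posterior of at least 0.99, a replicate block and leaving out each library. Python 3.11.15 with NumPy 2.4.6 was used.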

Additional observations from a re-analysis of the deposited data

How the results depend on the processing

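With 2 libraries a group, single libraries set much of the result, and a lone library was assumed to vary like the other group. Leaving out each library in turn gave 0 to 2 members higher and 0 to 22 lower past the threshold at the 8-cell stage, with a median log2 fold change of -0.365 to 0.0227. At the morula stage it gave 0 to 1 higher and 1 to 13 lower, with a median of -0.350 to -0.137. Over all entries it gave 83 to 474 higher and 193 to 1542 lower at the 8-cell stage, and 350 to 813 higher and 436 to 1056 lower in morulae. The median log2 ratio of morula over 8-cell was 0.302 to 0.494 in controls and 0.170 to 0.551 in TMZ embryos, with 42 to 59 members higher in the latter.

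Median-ratio scaling reversed the 8-cell median to 0.0951, gave -0.116 in morulae with 3 members lower and 1 higher, 292 and 255 entries higher and lower at the 8-cell stage and 687 lower in morulae, a median log2 ratio of morula over 8-cell of 0.524 in controls when scaled over 8 libraries, and a median difference between stages of -0.262. One fit over all 8 libraries gave 1 of 70 members lower at the 8-cell stage (10.6% of all genes were) and 3 in morulae (5.44% of all genes). A posterior of at least 0.99 gave 4 lower in morulae among 56 members tested, where 10.6% of all entries were lower. A minimum of 5 FPKM, which tests fewer entries, gave 60 higher and 221 lower at the 8-cell stage and 461 and 597 in morulae. The share of members in 8-cell control, 8-cell TMZ, morula control and morula TMZ embryos was 14.4%, 13.8%, 19.5% and 17.2% of protein-coding FPKM and 7.26%, 6.87%, 9.64% and 8.43% of fragments. Without paralogues it was 9.87% in 8-cell controls and 11.3% in TMZ morulae. Beyond these constructions, the cause was not tested.

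Same-numbered morula libraries deviated with r = 0.0762 over 9685 entries. With 2 libraries a group this value cannot show whether same-numbered libraries were collected together. A replicate block in morulae left 7 members lower and 0 higher with a median of -0.244, and gave 838 entries higher and 1151 lower. No paired analysis was possible at the 8-cell stage because its TMZ columns carry no number. Of the values of the named members under these alternatives, 22 of those called in morulae lost the call, 66 held it, and 0 changed sign. For named members not called, the sign changed in 40 values at the 8-cell stage and 14 in morulae, and 11 and 6 passed the threshold.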
